A study of Arabidopsis thaliana with 13 samples.

Results

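WSD1 (locus AT5G37300, on chromosome 5) was followed through the conversion of Arabidopsis thaliana cotyledons into vascular cells. It was represented by the 1 probe set, of 38408 on the array, that the platform annotation assigns to it, and is 1 of 16548 genes with a probe set of their own. The gene was chosen by its expression values in these same samples, in which it was far higher on the first day of culture than at 0 h. Its own levels are therefore given as a description without a test. Cotyledons of 6-day-old Col-0 seedlings, a common wild-type accession with no transgene named in the labels, were cultured in the VISUAL induction medium, which makes leaf cells become xylem and phloem. The medium held 2,4-D at 1.25 mg/L (a synthetic auxin), kinetin at 0.25 mg/L (a cytokinin) and bikinin at 10 µM (an inhibitor of GSK3-like kinases that activates brassinosteroid signalling). All 13 samples came from this one culture scheme and no culture without the medium was analysed here, so the effects of excision, liquid culture and the 3 agents cannot be told apart. Samples were taken at 6 h intervals up to 72 h, starting at 0 h, and each time point had 1 array and no replicate.

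Wax ester synthases join a fatty alcohol to a fatty acyl group to make a wax ester, a storage or surface lipid. Plant enzymes of this family are called WS/DGAT, because related enzymes can also make triacylglycerol, the oil that fills lipid droplets. In Arabidopsis, WSD1 is known for making the wax esters of the stem surface, where it uses alcohols and acyl groups from the very-long-chain pathway of epidermal cells. Such waxes lie in the cuticle, the water-proof layer of the epidermis, whereas cutin is its polyester frame and suberin is a related polyester of inner and wounded tissues.

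Values are on a log scale read as log2, and each array was centred on its median, because the deposited medians formed 2 sets. Those of the 5 arrays up to 24 h were 5.15 to 5.35, and those of the 8 later arrays were 5.82 to 5.99. This break falls between the first and the second day of culture, where the array set and the hours in culture cannot be told apart. For comparisons, 4 neighbouring times were taken as a window: the first day (6 to 24 h), the second day (30 to 48 h) and the third day (54 to 72 h). The SD of a window holds change over its hours as well as array error, and a p-value reflects the spread among these 13 arrays alone. In bulk tissue, fewer cells that express a gene and less of its RNA per cell cannot be told apart.

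WSD1 was dim at 0 h and bright at 6 h. Its centred value was 3.4 at 0 h, which is the 15.6th percentile of all probe sets on that array, and 8.84 at 6 h, the 84.5th percentile. The difference was 5.44 on the log2 scale, or 43.4-fold. Of the 10982 genes compared, 0 had a larger step between these 2 arrays, and the count was also 0 under quantile normalization, for the values as deposited and without the filter on dim probe sets. This first place rested on the dim 0 h value. The 95th percentile of the absolute step over all genes was 1.45. No signal over background was given, and a fold against so dim a value depends on how dim signals were treated. With values floored at the 40th percentile of each array (5 at 0 h), the step was 3.84, or 14.3-fold, and 16 of 10876 genes had a larger one.

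The level then came down in stages without returning to its start. WSD1 stood at 8.45 at 12 h, 8.63 at 18 h and 7.61 at 24 h. The step from 18 to 24 h was -1.02, and 168 of the other 10981 genes had a step at least as far down. On the second day the values were 7.27 at 30 h, 7.41 at 36 h, 6.91 at 42 h and 6.65 at 48 h. On the third day they were 6.68 at 54 h, 6.48 at 60 h, 6.7 at 66 h and 6.85 at 72 h. The lowest value after 0 h, at 60 h, was 8.47-fold above the 0 h array, and the value at 72 h was 11-fold above it. With the floor these were 2.79-fold and 3.61-fold. From 6 h to 72 h the level came down 3.96-fold.

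**Figure D1:**
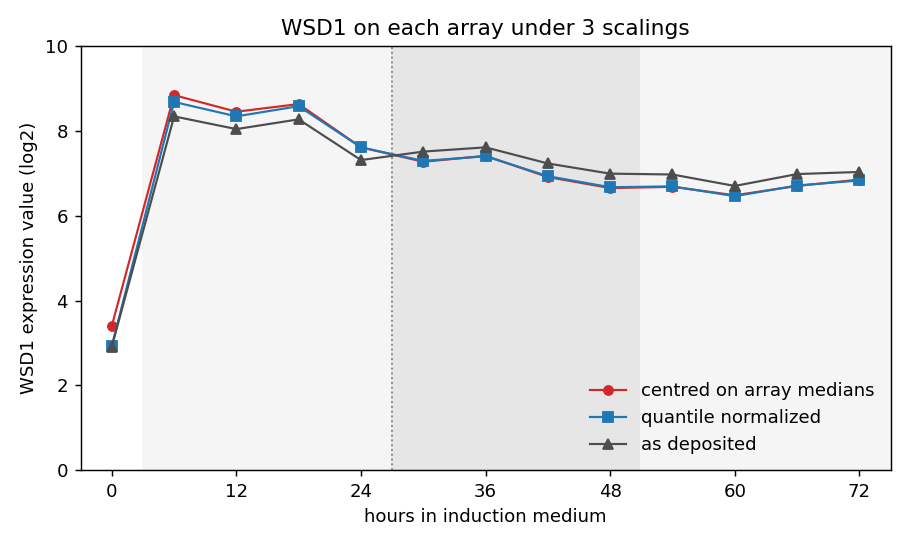
WSD1 expression value (log2, vertical axis) on each of the 13 arrays against hours in induction medium, under 3 scalings. Shading separates the days, and the dotted line marks the break between the array sets. Each scaling shows a low 0 h array, a highest value at 6 h and a plateau between 6.46 and 7.03 from 54 h on, while the step from 24 to 30 h is downward under centring and upward as deposited.

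As window means, WSD1 was at 8.38 ± 0.54 (SD, n = 4) on the first day, 7.06 ± 0.35 (SD, n = 4) on the second and 6.68 ± 0.15 (SD, n = 4) on the third. The first day lay 4.99 above 0 h, or 31.7-fold, and 4 of the 10982 genes had a larger difference. With the floor it lay 3.38 above 0 h, or 10.4-fold, and 35 of 10876 genes had a larger difference. After centring, all 4 first-day arrays lay above all 4 second-day arrays. As deposited they overlapped, with 24 h at 7.31 below 30 h at 7.51 and 36 h at 7.61. The second day was 1.32 below the first, or 2.5-fold, against a median of -0.25 over all genes. On the values as deposited this difference was -0.65, against a median of 0.42 over all genes. The third day was 0.38 below the second, a gap as wide as the SD of WSD1 within windows (0.38), and the 2 windows overlapped.

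Set in order of level after centring, the 13 arrays fell into 3 tiers, given as a description. The first 3 were 6, 18 and 12 h, with gaps of 0.21 and 0.18, both smaller than the within-window SD. A gap of 0.85, or 2.23 times that SD, separated 12 h from 24 h, and the SD itself includes the 24 h array. As deposited this gap was narrower, with 12 h at 8.04 followed by 36 h at 7.61, 30 h at 7.51 and 24 h at 7.31. From 24 h down through 36, 30, 42, 72, 66, 54, 48 and 60 h no gap was wider than 0.37. Sorting makes gaps between neighbours small, so they do not show that these arrays were alike. The ends of this run, 24 h at 7.61 and 60 h at 6.48, lay further apart than the within-window SD. The last gap, between 60 h and 0 h, was 3.08, or 1.48 with the floor. The step from 24 to 30 h, across the array sets, was -0.34 after centring, -0.32 under quantile normalization and 0.2 on the values as deposited, so its direction was not settled.

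The WS/DGAT family list held 10 loci besides WSD1, 8 of which had a probe set with a single gene. The annotation gives these loci no symbol, and their membership rests on general knowledge of the family. Of the 8, only AT3G49210 and AT5G12420 passed the filter on dim probe sets, which removed the lowest 30% by mean value. AT5G12420 rose on the first day, from 4.55 at 0 h to 5.77 ± 0.24 (SD, n = 4), a 2.33-fold difference (adjusted p = 0.00885 in limma). Its 4 first-day values were 6.03, 5.9, 5.63 and 5.5, all above the 0 h value. The call ended with the floor at the 40th percentile, where the log2 difference was 0.77, and in the fit on the 5 arrays of 0 to 24 h alone (adjusted p = 0.0771). The WSD1 level was on each array of the third day below every array of the first. After centring this also held for AT3G49210 (7.05 to 7.43 against 7.67 to 8.35). The level of AT5G12420 on the third day (4.95 to 5.66) overlapped its first-day range.

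AT3G49210 went from 7.14 at 0 h to 7.96 ± 0.29 (SD, n = 4) on the first day, and the log2 difference of 0.81 did not pass (adjusted p = 0.0575). It reached its highest value, 8.35, at 18 h and was back at 7.06 at 72 h. Neither gene passed in the later comparisons (0 of 2 in limma, where at an unadjusted p under 0.05 there were 0 from the first to the second day and 1 lower, AT3G49210, from the second to the third). Background calls in the first-day comparison were 6.3% of 10982 genes higher and 5.49% lower. They were 5.11% higher and 8.3% lower from the first to the second day, and 3.91% higher and 1.47% lower from the second to the third. For the unadjusted counts no share over all genes is given here.

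The other 6 family loci were dim throughout, between 1.27 and 4.16 on every array, and their means lay at or below the 17.6th percentile. Tested without the filter, among 16548 genes, 0 of the 6 were higher or lower on the first day than at 0 h, beside 4.25% of those genes higher and 6.52% lower. AT5G53380 was lower on the second day than on the first by 1.04 on the log2 scale (adjusted p = 0.000331), the 1 of the 6 that passed any comparison. From the first to the second day 10.3% of all genes in that fit were lower and 3.52% higher, so 1 of 6 is near the background. From the second to the third day 2.79% were higher and 0.931% lower. At an unadjusted p under 0.05 limma gave 0 higher and 2 lower of the 6 on the first day, and 0 higher and 6 lower from the first to the second day, across the break in array medians. The share of all genes at this unadjusted threshold is not given here, so these counts have no background to be set against.

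**Figure D2:**
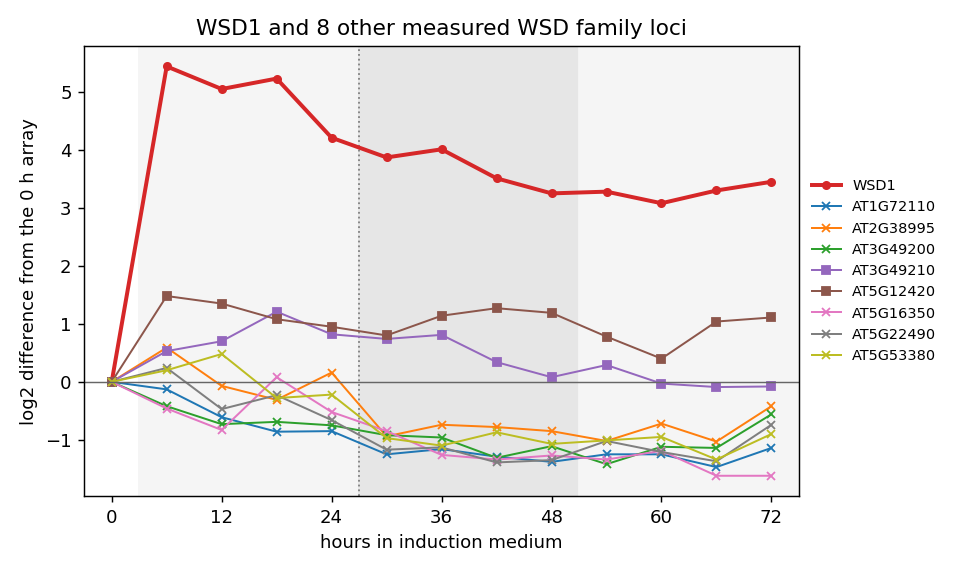
Log2 difference of each centred array value from the 0 h array (vertical axis) against hours in induction medium, for WSD1 and 8 other loci of the family. Squares mark the 2 loci above the filter on dim probe sets and crosses the 6 below it. WSD1 lies between 3.08 and 5.44 from 6 h on, and no other locus is more than 2 above its 0 h value at any time.

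The family and 9 further lists of lipid, cuticle and stress genes were set beside WSD1. Of their 153 other genes 33 were measured and 18 passed the filter. The fatty acyl reductases, which supply the alcohol of a wax ester, the elongation enzymes and the exporters had no measured member and were not analysed here. The 1 measured of 14 cutin genes, AT5G33370, was below the filter. On the first day 4 of the 18 were higher than at 0 h and 2 lower, beside 6.3% of all genes higher and 5.49% lower. The median log2 difference was 0.4 against -0.08 over all genes. On the second day against the first 0 were higher and 3 lower, with a median of -0.36 against -0.25. There the background was 5.11% of genes higher and 8.3% lower. On the values as deposited it turned to 16.6% higher and 1.37% lower, and the pathway genes to 1 higher and 2 lower. On the third day against the second 0 were higher and 1 lower, beside 3.91 and 1.47% of all genes. At an unadjusted p under 0.05 limma gave 0 higher and 9 lower from the first to the second day, and 3 higher and 4 lower from the second to the third. The share of all genes at this unadjusted threshold is not given here, so these counts have no background to be set against.

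Of the 4 measured wax synthesis genes, 1 rose on the first day, beside 6.3% of all genes. This was AT1G02190, a locus without a symbol in the annotation, with 5.21 at 0 h and 7.37 ± 0.82 (SD, n = 4) on the first day, 4.46-fold higher (adjusted p = 0.0102). It was at 6.25, 7.43, 8.22 and 7.57 from 6 to 24 h, so its largest value of that day came at 18 h, not at 6 h as for WSD1. It stayed high, at 8.73 ± 0.13 (SD, n = 4) on the third day, when WSD1 was at its lowest since 0 h. The call ended in the fit on the 5 arrays of 0 to 24 h alone (adjusted p = 0.142). AT4G13840, given as CER26 in the annotation's synonyms and known to aid the elongation of very-long-chain fatty acids, was at 7.77 at 0 h and 6.26 at 72 h. After centring, its second day was 0.75 below the first, under the size required for a call (adjusted p = 0.00137). That comparison crosses the break in array medians, with a median over all genes of -0.25 after centring and 0.42 as deposited. The size of this difference therefore depends on the scaling. FATB, the thioesterase that releases saturated fatty acids from the plastid, kept between 11.2 and 11.85 on all 13 arrays. FACT, which makes alkyl caffeates of suberin from fatty alcohols, differed from 0 h by -0.72 on the first day (adjusted p = 0.0901).

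Of 22 listed regulators of cuticle and suberin genes 5 were measured and 1 passed the filter. That locus, AT5G07580, fell 6.27-fold, from 6.91 at 0 h to 4.27 ± 0.42 (SD, n = 4) on the first day (adjusted p = 0.00183), and stayed between 3.57 and 4.69 afterwards. From 6 h on its values were below the 40th percentile of their arrays, and with the floor its first-day log2 difference was -2.08. AT5G61590, which the annotation's synonyms name DEWAX (Decrease Wax Biosynthesis), is known as a transcription factor that represses wax genes. It was at 6.15 at 0 h and at 3.23, 2.56, 2.42 and 2.84 from 6 to 24 h, with 1.67 at 42 h and 3.75 at 72 h later. Its low mean kept it below the filter. Tested without the filter it fell 10.5-fold on the first day (adjusted p = 0.000243), to values dimmer than the 40th percentile of their arrays. With the floor the difference was 2.49-fold. The AP2-type activators SHN2 and SHN3, known from cuticle formation, were below the filter too, and their first-day differences without it were -0.06 and -0.02 (adjusted p = 0.935 and 0.958). SHN2 was lower on the second day than on the first by 1.09 (adjusted p = 0.00312). This was across the break in array medians, and its second-day values (3.02 to 3.84) were below the 40th percentile of their arrays.

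On the list of triacylglycerol and lipid droplet genes, 2 of 7 tested members rose on the first day and 1 fell. Beside them, 6.3% of all genes were higher and 5.49% lower. AT2G47780 had the difference nearest in size to that of WSD1, from 6.11 at 0 h to 10.23, 11.06, 11.44 and 10.76 from 6 to 24 h. That was 27-fold on the mean (adjusted p = 6.42e-05), and all its later arrays, down to 8.22 at 72 h, lay above 0 h. It fell 2.56-fold from the second to the third day (adjusted p = 0.0122). Its Pearson r with WSD1 was 0.91 over the 13 arrays and 0.8 over the 12 arrays from 6 h on. AT1G67360 rose 2.96-fold, to 8.22 ± 0.22 (SD, n = 4) from 6.65 (adjusted p = 0.000689). AT3G05500 fell 3.1-fold, from 9.75 to 8.12 ± 0.18 (SD, n = 4) (adjusted p = 0.000237). These 3 loci were listed together as lipid droplet coat proteins and have no symbol in the annotation. SDP1, the lipase that starts oil breakdown, was lower by 0.71 on the first day, under the size required for a call (adjusted p = 0.0207). SDP1-LIKE, its close relative, differed by 1.21 (adjusted p = 0.0922).

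The cold and drought genes tested had their maximum at 6 h as WSD1 did, but ended below their 0 h level. Of the 6 measured genes of the abscisic acid and drought list, 3 passed the filter. On the first day 0 of them rose in limma (1 was higher at an unadjusted p under 0.05), beside 6.3% of all genes called higher. All 3 fell from the first to the second day, beside 8.3% of all genes. COR15A, whose product protects chloroplast membranes in the cold, was at 9.35 at 0 h, 12.33 at 6 h, 9.86 at 24 h and 6.66 at 72 h. It fell 9.12-fold between the first 2 days (adjusted p = 0.000214). KIN2 went from 9.23 to 11.2 at 6 h and then to 8.11 at 24 h, and fell 5.61-fold (adjusted p = 0.00156). COR47, a dehydrin gene, fell 2.75-fold (adjusted p = 0.0012), a call that ended on the values as deposited, where the difference was -0.78. Over the 12 arrays from 6 h on, r with WSD1 was 0.96 for COR15A, 0.97 for KIN2 and 0.95 for COR47. So high an r was common there, since 15.6% of all genes reached at least 0.9. Over all 13 arrays r was 0.49, 0.33 and 0.38 for these 3 genes. At 72 h all 3 lay below their 0 h value, whereas WSD1 lay 3.46 above its own, or 1.85 with the floor.

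**Figure D3:**
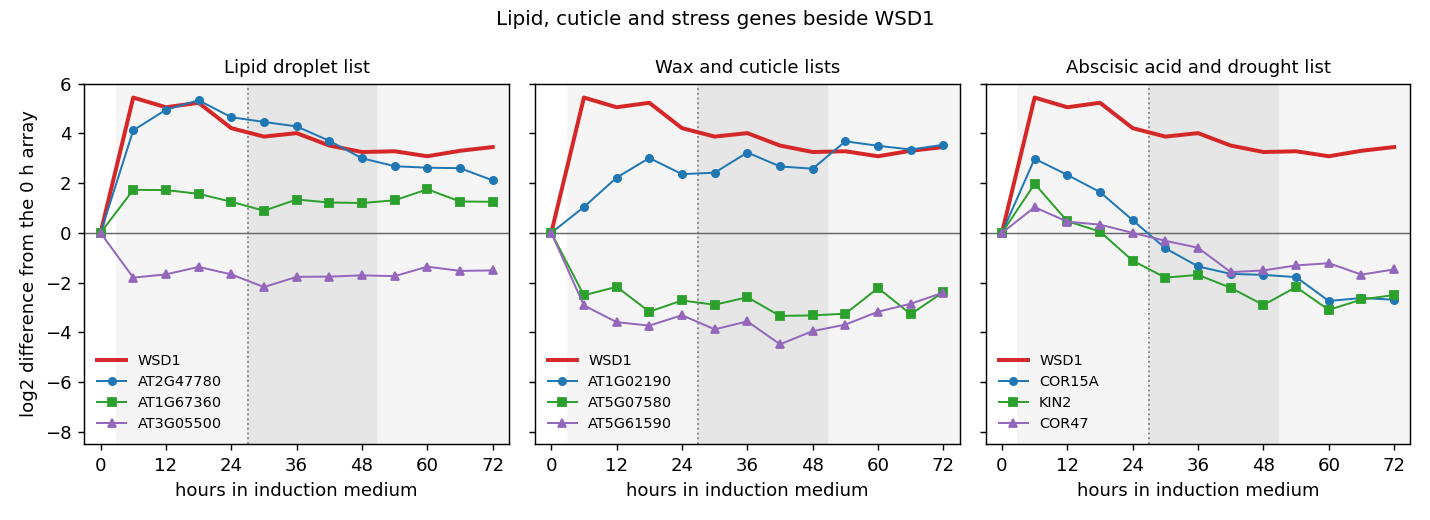
Log2 difference of each centred array value from the 0 h array (vertical axis) against hours in induction medium, with WSD1 (thick line) repeated in each panel beside 3 genes of the lipid droplet, the wax and cuticle, and the abscisic acid and drought lists. AT2G47780 stays above 2 from 6 h on, AT5G07580 and AT5G61590 lie below 0 from 6 h on, and COR15A, KIN2 and COR47 cross below 0 by 30 h.

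Genes of like course were ranked by Pearson r with WSD1, as a description over arrays that share their scaling and the single 0 h array. Over all 13 arrays 71 of 10981 genes (0.647%) had r of at least 0.9. The 8 highest were AT5G61820 (0.986), NDB2 (0.982), AT4G16190 (0.977), AT1G55265 (0.97), GH3.3 (0.97), HAT2 (0.967), AT1G69480 (0.964) and AT5G16980 (0.96). NDB2 encodes an alternative NAD(P)H dehydrogenase of mitochondria, GH3.3 an enzyme that conjugates auxin to amino acids, and HAT2 a homeodomain transcription factor known to be induced by auxin. AT5G61820 went from 8.77 at 0 h to 12.35 at 6 h and 10.71 at 72 h. GH3.3 went from 9.47 to 12.7 and then to 11.2. All 8 were lowest at 0 h, and their step from 0 to 6 h lay between 1.58 for HAT2 and 4.38 for AT5G16980, beside 5.44 for WSD1. With the floor the step of WSD1 was 3.84, below the 4.38 of AT5G16980, which was above the floor on both arrays.

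Without the 0 h array the ranking changed. Over the 12 arrays from 6 h on, 1709 genes (15.6%) had r of at least 0.9, and the first 5 were AT2G41190 (0.989), AT4G22530 (0.987), AT2G20920 (0.987), AT4G00895 (0.986) and AT1G43560 (0.985), annotated as ty2, a thioredoxin Y2 gene. Some of these had no step up from 0 to 6 h like that of WSD1, and r over all 13 arrays was 0.083 for AT2G20920, 0.169 for AT4G00895 and 0.033 for ty2. AT2G41190 had both the step and the later course, with 5.58 at 0 h, 10.1 at 6 h and 6.93 at 72 h (r of 0.907 over 13 arrays). AT5G61820 ranked 1 over 13 arrays and 12 over 12 arrays (r of 0.983).

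**Figure D4:**
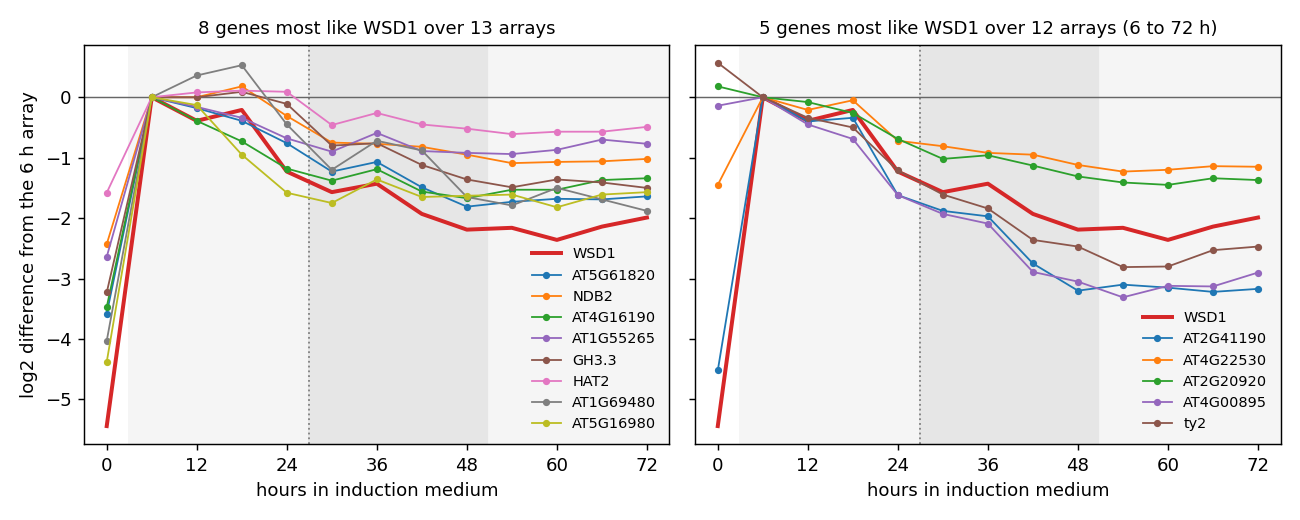
Log2 difference of each centred array value from the 6 h array (vertical axis) against hours in induction medium, for WSD1 (thick line) and the 8 genes most like it over 13 arrays (left) or the 5 most like it over the 12 arrays from 6 h on (right). The left genes all start below their 6 h value, while in the right panel AT2G20920, AT4G00895 and ty2 start near or above it.

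Markers of the labelled tissue moved over the same hours. The 3 measured of 7 mesophyll markers, RCA, SBPASE and PRK of carbon fixation, were at 12.13, 11.85 and 9.99 at 0 h, and their mean log2 value went from 11.33 at 0 h to between 9.24 and 10.89 on the first day and between 7.32 and 7.85 on the third. All 3 fell from the first to the second day (adjusted p = 8.7e-05, 0.00052 and 0.000279 in limma), beside 8.3% of all genes. Their r with WSD1 over the 12 arrays from 6 h on was 0.97, 0.97 and 0.98, where 15.6% of all genes had at least 0.9. Over all 13 arrays it was 0.08, 0.03 and 0.14. Of 6 epidermis markers 1 was measured, CR4, a receptor kinase gene, with 4.25 at 0 h, 4.23 to 4.59 on the first day and 2.78 to 3.35 on the third. Tested without the filter, it was lower on the second day than on the first by 1.03 (adjusted p = 0.000244). All its values lay below the 40th percentile of their arrays, so this was a difference among dim signals. Of 8 guard cell markers 4 were measured, and their mean log2 value was 7.53 at 0 h, 6.23 to 7 on the first day and 5.86 to 6.05 on the third. FMA and MUTE, stomatal lineage regulators, differed by 0.01 and, without the filter, by -0.33 on the first day and were not called (adjusted p = 0.977 and 0.568). From the first to the second day FMA was lower by 0.53, under the size required for a call (adjusted p = 0.00503 in limma). For every marker here, that comparison crosses the break in array medians. The median over all genes in it was -0.25 after centring and 0.42 as deposited. The sizes given therefore depend on the scaling, and a direction for FMA as deposited is not given here. Over the same days MUTE, tested without the filter, was lower by 1.58 (adjusted p = 0.000208), with every value below the 40th percentile of its array. SPCH, a regulator of stomatal lineage entry, fell 2.11-fold on the first day (adjusted p = 0.0419) and 3.13-fold from the first to the second (adjusted p = 0.000186). AT1G22690, listed with them, fell 6.03-fold on the first day (adjusted p = 0.00515) and rose 2.77-fold from the second to the third (adjusted p = 0.0126). The 1 measured of 7 phloem markers, AT3G12730, was at 9.36 at 0 h and between 6.52 and 7.29 on the third day, when it fell 2.15-fold from the second (adjusted p = 0.00499), and none of 8 xylem markers was measured. The part of cell make-up in the course of WSD1 was not tested.

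The chromosomal neighbours, by the gene order of TAIR10.1, did not share the step at 6 h. AT5G37290 and AT5G37310, the nearest measured genes on either side, were at 6.99 and 9.5 at 0 h and at 7.46 and 10.14 at 6 h. AT5G37280 and AT5G37320, the next ones out, were dim, at 3.82 and 3.44 at 0 h and 3.61 and 3.54 at 6 h.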

How the data were processed

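Total RNA from 13 cotyledon samples was labelled as biotinylated cRNA and hybridised to 1 array each, per the labels' protocols. The authors deposited log-scale values, whose range was taken to mean log2. No source used here states the base, background correction, summary or normalization, and the submitters' processing notes name only GCOS. The number of arrays limits the precision.

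The annotation gave 1 gene to 16722 of 38408 probe sets, several to 759 and none to 20927. Names came from the TAIR10.1 RefSeq table. Each array was centred on its median, probe sets in the lowest 30% by mean value were dropped, and the highest probe set by mean was kept per gene, which left 10982 genes. Window means over the 13 arrays were fitted with limma 3.58.1 (R 4.3.3; 9 residual degrees of freedom, eBayes with intensity trend). Genes were called where the log2 difference reached 1 and the p adjusted by Benjamini and Hochberg's method was under 0.05. The 0 h window is 1 array and is assumed to vary as the others do, which each first-day call rests on. The fit was tested on simulated data.

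Named were WSD1, the measured family, up to 4 called members per list and comparison, the 8 genes of highest r over 13 arrays and the 5 of highest r over 12. Other genes named (such as DEWAX, the uncalled list members, the markers and the chromosomal neighbours) were added after their values were seen. The members and lists were chosen with earlier results of these data known. Of 188 genes in 15 lists, 43 were measured. Alternatives were other scalings, filters and floors, the mean of probe sets, no intensity trend, fits on the compared arrays alone and leaving out each array. matplotlib 3.10.9 (Python 3.11.15) drew the figures.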

Additional observations from a re-analysis of the deposited data

Results flagged for a closer look

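In 7 of 72 windows of 4 arrays tested for WSD1 and the named genes, 1 array stood apart from the other 3 by more than Dixon's critical value, which chance gives in about 1 in 20 windows. WSD1 itself had no such array. On the third day AT3G49210 was high at 54 h (7.43, others up to 7.11), AT2G47780 low at 72 h (8.22, others from 8.71), and AT1G67360 high at 60 h (8.4, others up to 7.96). COR15A was high at 54 h (7.57, others up to 6.73) and AT5G16980 low at 60 h (9.17, others from 9.38). On the second day AT3G05500 was low at 30 h (7.57, others from 7.98) and AT1G55265 high at 36 h (11.17, others up to 10.87). The arrays of a window are neighbouring times, not replicates.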

How the results depend on the processing

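WSD1 kept its direction in all 3 comparisons under each alternative run. Its first-day difference from 0 h was 5.37 under quantile normalization and 3.38 with the floor, and its second-day difference from the first was -0.65 as deposited. Over the alternatives the ranges were 3.38 to 5.37, -1.58 to -0.65 and -0.51 to -0.26.

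Of pathway genes, the second day against the first gave 1 higher as deposited, beside 16.6% of all genes. Without the filter it gave 9 lower of the 33 measured, beside 10.3% of all genes, where the main setting gave 3 of 18. The first day against 0 h gave 1 lower with the lowest 50% by mean left out and 2 higher in the fit on the 2 windows compared alone, which for the third day against the second gave 2 lower. AT2G47780, AT3G05500, AT1G67360, AT5G07580, COR15A and KIN2 kept each call made in the main setting wherever they were tested. Of the 8 genes most like WSD1, 5 were among the first 8 under quantile normalization, 1 by Spearman rho and 0 over the 12 arrays from 6 h on.

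Over all genes, the first day gave 692 higher and 603 lower, but 287 and 157 in the fit on the 5 arrays alone, and 1079 and 299 lower without a filter and with 50% left out. The second day gave 561 higher and 912 lower, but 1821 and 151 as deposited and 1697 lower without a filter. The third day gave 161 lower, but 78, 74, 273, 106 and 76 without the 30, 36, 48, 66 and 72 h arrays. The 0 h array could not be left out, since it is the only one of its time. The causes were not tested.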
